A study of Mus musculus with 14 samples.

Results

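The genes described here are 36 genes of the extracellular matrix and of hepatic stellate cells, chosen by their symbols among the 17656 genes listed for each of 14 mouse livers. Grouped by role, they were 5 fibrillar collagens (Col1a1, Col1a2, Col3a1, Col5a1, Col5a2), 4 basement membrane components (Col4a1, Col4a2, Lama4, Nid1), 4 microfibrillar and fibril-associated collagens (Col6a1, Col6a2, Col6a3, Col14a1), 3 small leucine-rich proteoglycans (Dcn, Lum, Bgn), 4 glycoproteins and fibulins (Fn1, Sparc, Fbln1, Fbln5), 2 lysyl oxidases (Lox, Loxl2), 5 TGF-beta and matricellular signals (Tgfb1, Tgfbi, Ccn1, Ccn2, Spp1), 6 markers of stellate cells and pericytes (Des, Lrat, Reln, Rgs5, Pdgfra, Pdgfrb), and 3 genes of the cell periphery and cytoskeleton that are also found in many other cells (Vim, Anxa2, Lgals1). All 36 were found in the tables.

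Liver RNA was sequenced from 3 WT and 3 Ythdf1-/- mice that received saline, and from 4 WT and 4 Ythdf1-/- mice that received concanavalin A (ConA), a plant lectin that activates T cells and injures the liver. All were C57BL/6 mice of 8 weeks, injected through the tail vein, ConA was given at 8 mg/kg, and livers were taken at 8 h. In the following, KO stands for a Ythdf1-/- mouse, in which a reader protein of m6A-marked mRNA was removed with CRISPR/Cas9 in every cell of the body, so no cell type of the liver was singled out by the model. Each library gave values in TPM, the number of transcripts of a gene among 1000000 transcripts, corrected for gene length, so levels of different genes may be set side by side.

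Hepatic stellate cells lie between hepatocytes and the sinusoidal endothelium, store vitamin A as retinyl esters, and are the main source of liver collagen. After injury they can turn into contractile myofibroblasts that lay down fibrillar collagen, a change driven by TGF-beta and PDGF. A basement membrane of collagen IV, laminin and nidogen is sparse along normal sinusoids and is found around bile ducts and vessels. Matricellular proteins such as Ccn1, Ccn2 and Spp1 are secreted into the matrix but act mainly on the behaviour of cells.

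Differences between groups were tested with limma on log2(TPM + 1) over all genes that passed a filter on low values, and called where the p adjusted by Benjamini-Hochberg was under 0.05. This scale understates how much rare transcripts change. Since read numbers cannot be read back from TPM, errors here are those between mice, and counting errors are unknown. In whole liver, fewer cells of a type and less RNA per cell cannot be told apart.

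Several facts about the libraries bear on these genes. WT saline libraries 2 and 3 could hardly be distinguished: the log2 ratio between them had a median size of 0.069 over the 36 genes, while the other 17 pairs of mice from one group had 0.132 to 0.830. WT saline replicate 1 stood apart from them, with 26 of the 36 genes more than 2-fold above the mean of replicates 2 and 3 and a median ratio of 3.32, while over 9882 genes of at least 1 TPM in all 3 libraries the median ratio was 0.982 and 1.29% of genes exceeded 2-fold. Calls that involve WT saline are therefore given as labelled and, beside that, with replicates 2 and 3 averaged and counted as 1 mouse. The targeted gene, Ythdf1, was listed at 12.0 to 13.9 TPM in WT livers under saline and 18.7 to 25.6 after ConA. The KO livers had 18.4 to 20.8 and 15.5 to 26.2 TPM, so the whole-gene value did not check the genotype labels, since a deletion that stops the protein need not lower the transcript total. The hepatocyte markers were the highest marker list in every library, at 101775 to 127226 TPM in sum in saline and 48748 to 78184 after ConA.

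Under saline the 36 genes spanned a wide range of levels, and most of the stromal genes were rare transcripts of whole liver. Fn1, which hepatocytes secrete as plasma fibronectin, led with 128 to 223 TPM in the 6 saline livers. Spp1 with 41.1 to 77.6 TPM, Lgals1 with 24.1 to 58.1 and Dcn with 13.2 to 83.5 followed. The fibrillar collagens lay between 0.1 and 7.09 TPM, and the stellate cell and pericyte markers between 0.19 and 8.32. Of the 36 genes, 13 reached 1 TPM in all 14 libraries, 2 (Lama4 and Col5a2) stayed below 1 TPM in each of them, and Lox was listed at 0 in WT saline replicate 2. The map of values by mouse shows both the split within the WT saline group and the genes that rose after ConA.

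**Figure D1:**
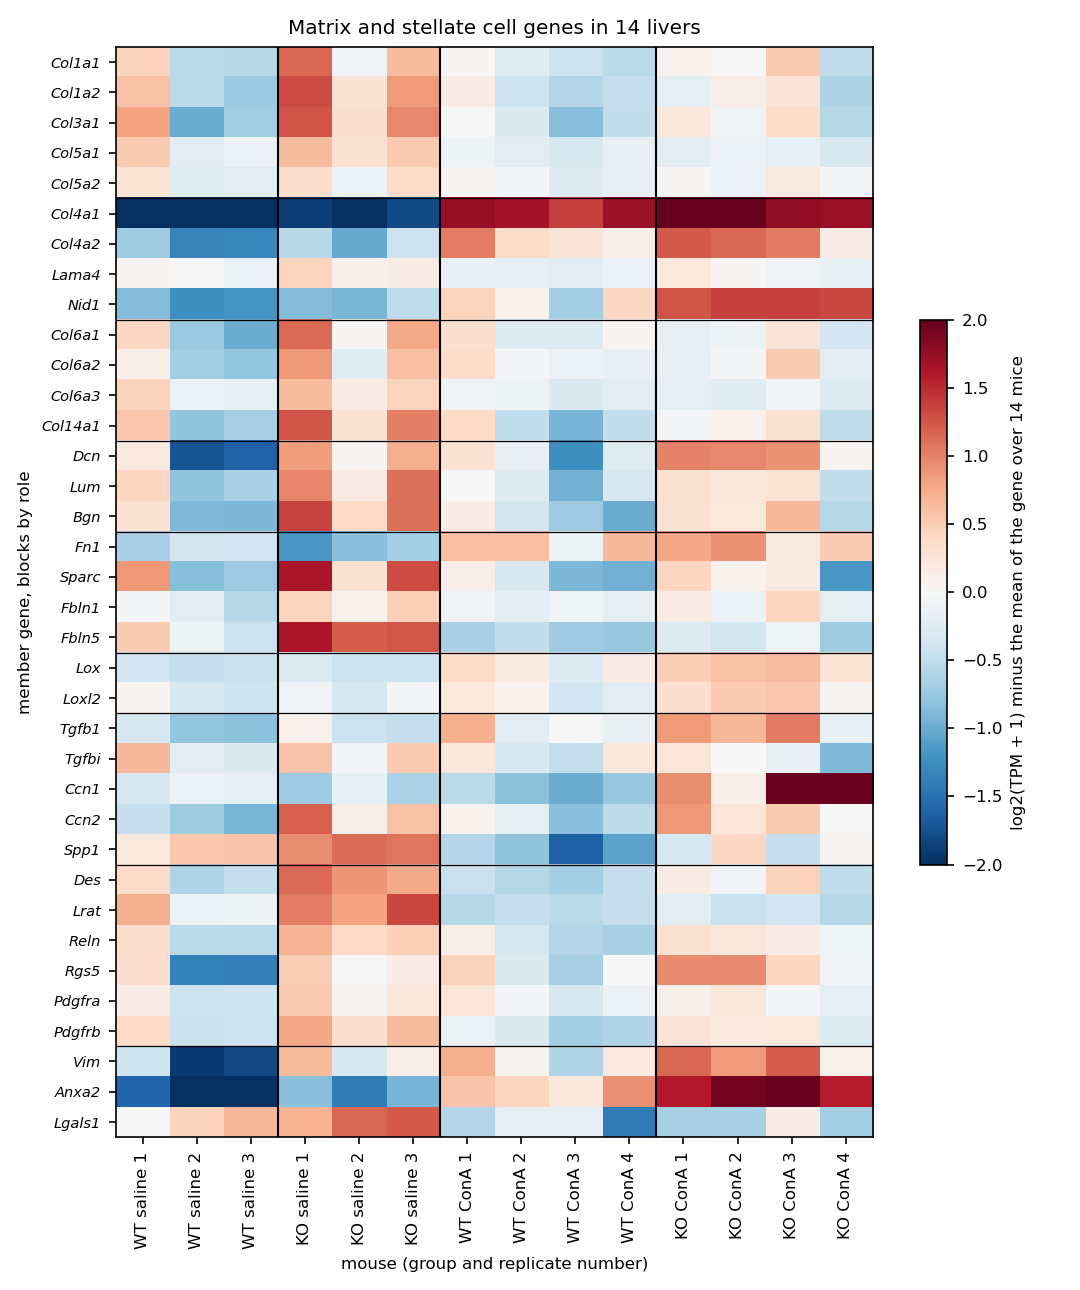
Level of the 36 genes (vertical axis, blocks by role) in each of the 14 livers (horizontal axis, by group and replicate number), as log2(TPM + 1) minus the mean of the gene over all mice; colours stop at -2 and 2. WT saline replicates 2 and 3 are blue for nearly all stromal genes, Col4a1 and Anxa2 turn red in the ConA groups, and Nid1 is red throughout the KO ConA group only.

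The first comparison asked which of these genes responded to ConA in WT livers. Of the 36 genes, 21 passed the filter and 10 were called: 7 rose, against 22.0% of all 10768 genes tested, and 3 fell, against 31.0%. The 7 were Col4a1, Col4a2, Nid1, Fn1, Tgfb1, Vim and Anxa2, and the 3 were Spp1, Lgals1 and Ccn1. The tested members had a median log2 fold change of 0.40, and all genes tested had one of -0.07. The median of the members was 0.75 without WT saline replicate 1, 0.24 without replicate 2, 0.12 without replicate 3, 0.18 with replicates 2 and 3 averaged and -0.04 over all 36 without a filter. Of the fibrillar collagens only Col3a1 passed the filter, and it was not called by limma, nor were the 3 tested microfibrillar and fibril-associated collagens (Col6a1, Col6a2, Col14a1) and the 3 proteoglycans, with 0 of these 7 at an unadjusted p under 0.05. With WT saline replicates 2 and 3 averaged, 5 members rose and 1 fell (Spp1), and Tgfb1, Vim, Ccn1 and Lgals1 had adjusted p of 0.111, 0.0566, 0.0563 and 0.0838. Of all 10985 genes tested in that fit, 1881 rose and 2739 fell.

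In KO livers the same comparison called 21 of the 30 members tested. There 8 rose, against 33.9% of all 10988 genes tested, and 13 fell, against 30.7%. Col4a1, Col4a2, Nid1, Fn1, Tgfb1 and Anxa2 rose as in WT livers, joined by Loxl2 and Ccn1, and the 13 that fell were Col1a2, Col3a1, Col6a1, Col14a1, Lum, Bgn, Sparc, Fbln5, Spp1, Des, Lrat, Pdgfrb and Lgals1. The median was -0.44 over the tested members and 0.07 over all genes. With a filter at 5 TPM the sign turned: 16 members were tested, 7 rose, 4 fell and the median was 0.51. Without KO saline replicate 1 it was -0.26. Through the group in which they were higher alone, 6 of the 30 passed the filter, 4 of them called, and in WT livers 5 of the 21 did, 3 of them called. The 4 were Nid1, Fbln5, Loxl2 and Lrat, and the 3 in WT livers were Col4a1, Col4a2 and Nid1. Whichever single library was left out, 6 of the 8 rises (Col4a1, Col4a2, Nid1, Fn1, Ccn1, Anxa2) and 5 of the 13 falls (Fbln5, Spp1, Des, Lrat, Lgals1) were called. The number of falls dropped to 5 without KO saline replicate 1 and to 6 without KO saline replicate 3, and it was 16 without KO saline replicate 2. Over all genes these fits called 3138, 3017 and 3117 lower.

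Col4a1 and Col4a2 encode the paired chains of the most common form of collagen IV, the network-forming collagen of basement membranes. Col4a1 stood at 2.4, 0.83 and 0.83 TPM in the WT saline livers and at 49.9, 47.0, 38.1 and 49.0 in the WT ConA livers. In KO livers it went from 3.08, 1.74 and 3.4 TPM under saline to 66.8, 69.1, 50.6 and 49.0 after ConA. Every ConA liver lay far above every saline liver in both genotypes, and mean TPM was 34.0-fold higher in WT and 21.5-fold higher in KO livers. The log2 fold change was 4.38 ± 0.23 (SE, adjusted p = 1.13e-06) in WT and 4.01 ± 0.20 (adjusted p = 5.54e-08) in KO livers, the largest rise among the members in each.

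Col4a2 rose less than its partner. It had 1.57, 0.65 and 0.7 TPM in WT saline and 7.53, 4.43, 4.0 and 3.6 in WT ConA livers, and 1.84, 1.08 and 2.11 in KO saline and 8.78, 8.25, 7.56 and 3.63 in KO ConA livers. The groups were separate in each genotype, with log2 fold changes of 1.56 ± 0.25 (adjusted p = 0.000615) and 1.55 ± 0.27 (adjusted p = 0.000401). In each saline liver the TPM of the 2 transcripts were less than 2-fold apart, and after ConA Col4a1 was the far more abundant one in all 8 livers.

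The 2 genes stand head to head on chromosome 8. In RefSeq for GRCm38.p6 Col4a1 runs from 11198423 to 11312889 on the minus strand and Col4a2 from 11312805 to 11449287 on the plus strand. The RefSeq promoter table starts Col4a1 further inside, at 11312826, and Col4a2 at 11312805, so the first 22 bases of the 2 transcripts lie on opposite strands of the same stretch. It is shown because both genes share it, at chr8:11312805-11312826 in plus-strand letters:
Col4a1 and Col4a2: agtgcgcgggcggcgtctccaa

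Nid1 encodes nidogen, which ties laminin to collagen IV. It stood at 1.06, 0.61 and 0.65 TPM in WT saline and at 4.13, 2.95, 1.36 and 4.04 in WT ConA livers. The KO livers had 1.06, 0.99 and 1.65 TPM under saline and 7.98, 8.74, 8.76 and 8.54 after ConA. Its values were higher after ConA in every mouse of either genotype, by 1.16 ± 0.27 in log2 (adjusted p = 0.00506) in WT and by 2.10 ± 0.16 (adjusted p = 1.06e-06) in KO livers. In both genotypes Nid1 passed the filter through the ConA livers, where it was high, as did Col4a1 and Col4a2 in WT livers. Lama4, a laminin chain of vessel walls, was below 1 TPM throughout and was not tested.

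Fn1 rose in both genotypes from an already high level. WT livers had 184, 223 and 222 TPM under saline and 439, 441, 271 and 453 after ConA, and KO livers 128, 161 and 180 under saline and 494, 543, 327 and 411 after ConA. No ConA liver overlapped a saline liver, and the log2 fold changes were 0.91 ± 0.19 (adjusted p = 0.00345) and 1.48 ± 0.18 (adjusted p = 3.59e-05). The lowest ConA value was that of WT replicate 3, a library whose genes had a median ratio of 0.791 to their mean over the 14 libraries.

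Anxa2, a calcium-dependent membrane-binding protein that also assembles plasminogen on cell surfaces, was the second largest rise. Its levels were 6.26, 3.44 and 3.09 TPM in WT saline, 11.2, 7.31 and 10.5 in KO saline, 31.6, 28.5, 24.6 and 40.3 in WT ConA and 65.4, 82.0, 97.3 and 64.0 in KO ConA livers. No 2 groups shared a value, and the order of the groups was WT saline, KO saline, WT ConA, KO ConA. ConA raised it by 2.64 ± 0.23 in log2 (adjusted p = 2.06e-05) in WT and by 2.87 ± 0.19 (adjusted p = 3.53e-07) in KO livers.

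Vim, the intermediate filament protein of mesenchymal cells and leukocytes, had 13.2, 3.98 and 4.37 TPM in WT saline and 29.9, 18.4, 11.3 and 20.5 in WT ConA livers. One ConA liver lay below WT saline replicate 1, and the log2 fold change was 1.46 ± 0.40 (adjusted p = 0.0125). In KO livers the range was 13.9 to 27.9 TPM under saline and 18.9 to 42.3 after ConA, with 0.68 ± 0.28 in log2 (adjusted p = 0.0556). Tgfb1, the ligand that drives stellate cells toward myofibroblasts, was between 1.44 and 2.43 TPM in WT saline and between 2.65 and 5.99 in WT ConA livers, which did not overlap. KO livers had 2.12 to 3.53 TPM under saline and 2.85 to 7.84 after ConA, which did. Tgfb1 rose by 0.72 ± 0.24 (adjusted p = 0.0312) in WT and by 0.87 ± 0.27 (adjusted p = 0.0162) in KO livers. In KO livers its call was lost without KO saline replicate 2 or replicate 3, with a highest adjusted p of 0.0703.

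Spp1, the secreted phosphoprotein osteopontin, fell in both genotypes. It had 41.1, 52.0 and 53.1 TPM in WT saline and 23.1, 19.8, 10.7 and 16.3 in WT ConA livers, and 68.6, 77.6 and 75.3 in KO saline and 27.7, 47.2, 25.4 and 36.9 in KO ConA livers. All ConA livers were below the saline livers of their genotype. The log2 fold changes were -1.47 ± 0.24 (adjusted p = 0.000696) and -1.12 ± 0.19 (adjusted p = 0.000417). The share of 50-base stretches of its transcript that occur in no other gene was 90.9%, so some short reads could have been assigned elsewhere. Loxl2 had the lowest share among the members, 54.2%, and its values are uncertain for that reason.

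Lgals1, a galactose-binding lectin, had 24.1, 33.5 and 38.7 TPM in WT saline and 15.7, 21.5, 21.1 and 8.54 in WT ConA livers. KO livers had 39.7, 54.9 and 58.1 TPM under saline and 14.9, 15.1, 27.0 and 14.8 after ConA. It fell by 0.95 on the log2 scale (SE 0.30, adjusted p = 0.0239) in WT and by 1.48 (SE 0.22, adjusted p = 0.000144) in KO livers. The ConA livers were below the saline livers of their genotype. In WT livers the call was lost without WT saline replicate 2 or 3 or WT ConA replicate 1, with adjusted p of up to 0.0947, and rescaling the libraries gave 0.0508.

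The plot of the ConA response shows the stromal genes that differ from this pattern. Lrat, the enzyme that makes retinyl esters and a marker of quiescent stellate cells, had 2.38, 1.93 and 3.22 TPM in KO saline and 0.44, 0.23, 0.28 and 0.13 in KO ConA livers. It fell by 1.46 on the log2 scale (SE 0.16, adjusted p = 1.98e-05). In WT livers, where it had 1.72, 0.54 and 0.56 TPM under saline and 0.12 to 0.22 after ConA, it did not pass the filter and was not tested. Fbln5, which helps to assemble elastic fibres, had 5.51, 3.89 and 3.97 TPM in KO saline and 0.76, 0.63, 0.99 and 0.29 in KO ConA livers, the largest fall among the members at -1.72 ± 0.19 (adjusted p = 1.54e-05). Both genes reached 1 TPM in the KO saline livers and in no KO ConA liver, so they passed the filter through the group in which they were high.

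Other stellate cell and fibrillar collagen genes were lower after ConA in KO livers. Des, the muscle-type intermediate filament protein, had 3.72, 3.0 and 2.64 TPM under saline and 1.4, 1.09, 1.97 and 0.52 after ConA, with no overlap and a fall of 0.91 on the log2 scale (adjusted p = 0.00395). Sparc, a collagen-binding glycoprotein, had 35.1, 13.4 and 27.9 TPM under saline and 14.7, 11.3, 12.3 and 4.18 after ConA, with KO saline replicate 2 inside the ConA range and a fall of 1.20 (adjusted p = 0.0185, or 0.0872 at most without KO saline replicate 1 or 3). Col1a2, Col3a1, Col6a1 and Col14a1 fell by 0.74 to 0.93, and Pdgfrb, the PDGF receptor of stellate cells and pericytes, by 0.49. Dcn, the most abundant proteoglycan, was not among them: it had 47.9 to 83.5 TPM in KO saline and 47.4 to 92.7 in KO ConA livers, with 0.18 ± 0.25 in log2 (95% interval -0.38 to 0.74, adjusted p = 0.545). Rgs5, a regulator of G protein signals and a pericyte marker, was not called in either genotype, with 0.67 ± 0.42 in WT and 0.35 ± 0.25 in KO livers.

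**Figure D2:**
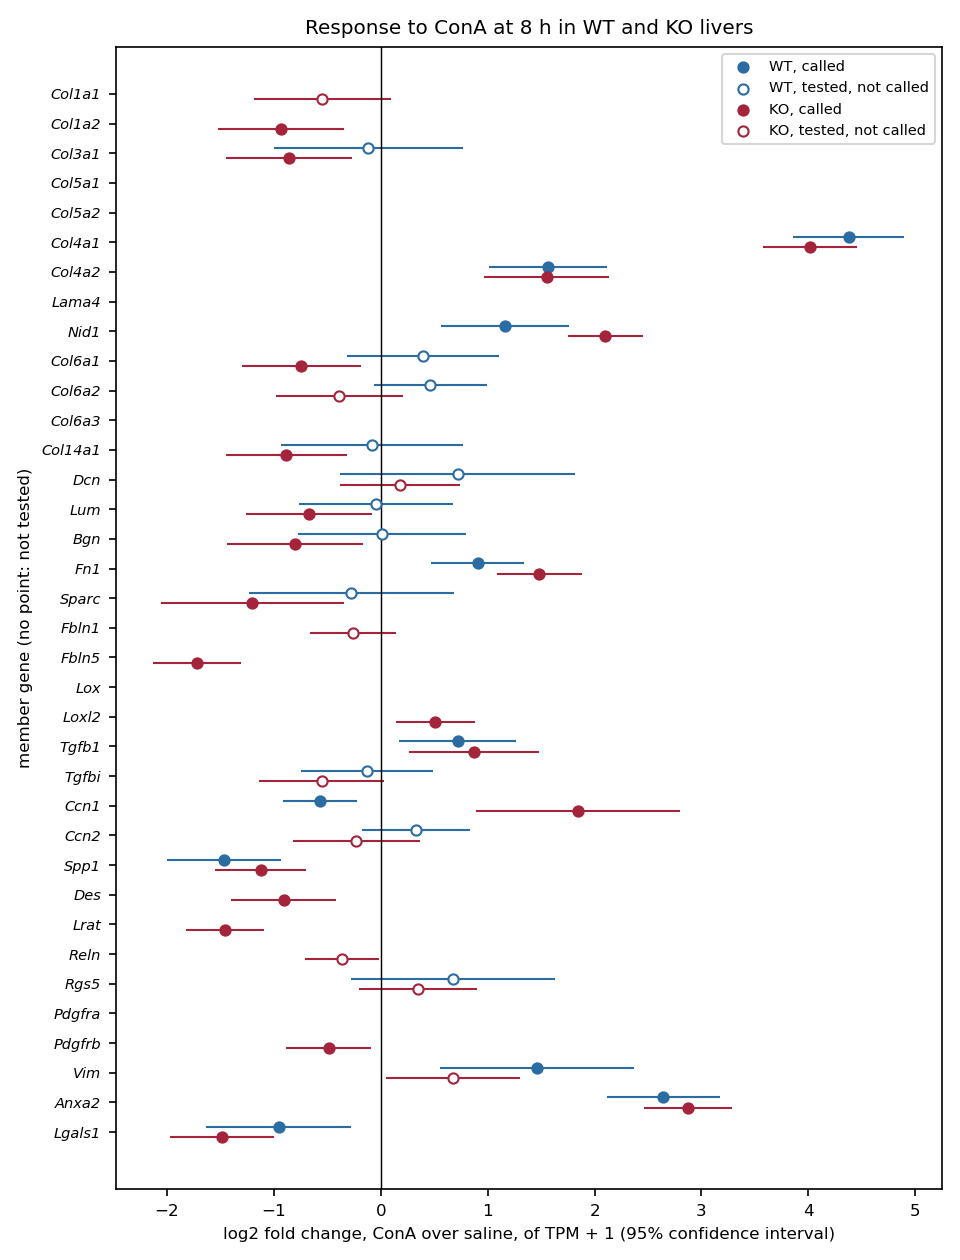
Log2 fold change of TPM + 1 between ConA and saline livers (horizontal axis, with 95% confidence intervals) for each of the 36 genes (vertical axis), in WT (blue) and KO livers (red); filled points were called and genes without a point were not tested. Col4a1 lies at 4.38 in WT and 4.01 in KO livers, and Ccn1 is called on opposite sides of 0.

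Ccn1 was the only member called in opposite directions in the 2 genotypes as labelled. It encodes a secreted integrin ligand of the CCN family, an immediate target of the Hippo and serum response pathways. WT livers had 6.96, 8.24 and 7.92 TPM under saline and 5.93, 4.69, 4.04 and 4.94 after ConA. KO livers had 5.06, 7.83 and 5.47 TPM under saline and 18.2, 9.89, 47.7 and 38.6 after ConA. The 4 WT ConA livers were all below the WT saline livers, and the 4 KO ConA livers were all above every other liver of the study. The log2 fold change with ConA was -0.57 ± 0.15 (adjusted p = 0.0113) in WT and 1.84 ± 0.43 (adjusted p = 0.00313) in KO livers. The fall in WT livers was called in 10 of 15 alternative settings, with adjusted p of up to 0.21, and was not called with WT saline replicates 2 and 3 averaged (0.0563), while the rise in KO livers was called in all 14.

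Its relative Ccn2, a classical TGF-beta target and fibrosis factor, was not called after ConA in either genotype. It had 1.95, 1.49 and 1.16 TPM in WT saline, 3.28, 2.59, 1.28 and 1.83 in WT ConA, 8.3, 3.48 and 5.11 in KO saline and 6.41, 3.81, 4.86 and 3.11 in KO ConA livers. The saline and ConA ranges overlapped within each genotype.

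Markers of other cells moved with ConA. The 7 neutrophil markers summed to 5.3 to 11.1 TPM under saline and after ConA to 318 to 560 in WT livers and 413 to 953 in KO livers. The 9 Kupffer cell markers summed to 131 to 221 TPM in WT saline and 24.3 to 91.3 in WT ConA livers, and to 62.1 to 141 in KO saline and 19.2 to 83.1 in KO ConA livers. The 8 markers of infiltrating monocytes and macrophages summed to 13.5 to 47.3 TPM under saline and 31.9 to 109.6 after ConA, with Gpnmb and Trem2 below 1 TPM in every library. Anxa2, Vim, Lgals1, Tgfb1, Fn1 and Spp1 are also expressed by leukocytes or hepatocytes, and the part of these cells in their values was not tested.

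For stellate cells, 13 further markers that are not among the 36 genes were read. Their summed TPM was 109, 36.4 and 37.1 in WT saline and 213, 138 and 182 in KO saline livers. After ConA it was 28.0 to 83.3 in WT livers and 49.4 to 103 in KO livers. A large part of these sums was 1 gene, Ecm1, with 46.9, 12.57 and 11.91 TPM in WT saline and 119.47, 76.55 and 102.35 in KO saline livers. After ConA Ecm1 had 18.65 to 63.35 TPM in WT and 40.7 to 80.26 in KO livers. In KO livers all 10 tested markers of this list fell with ConA, against 30.7% of all genes. In WT livers 5 of 8 did, or 5 of 9 with the pair averaged, against 31.0% of all genes. Lhx2 and Pth1r in KO livers, and Pth1r and Vipr1 in WT livers, passed the filter through the saline livers alone, where they were high. Gfap was at most 0.11 TPM in every library. The 6 myofibroblast and smooth muscle markers summed to 3.02 to 14.7 TPM in WT livers under saline and 6.95 to 14.04 after ConA, and to 17.4 to 23.6 and 12.0 to 37.0 TPM in KO livers, so the ranges overlapped in each genotype. The part of cell composition in the lower stellate cell genes was not tested.

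The next comparison asked whether the genes already differed between KO and WT livers under saline. Of 28 tested members 8 were called, all of them higher in KO livers: Bgn, Fbln5, Ccn2, Spp1, Des, Lrat, Vim and Anxa2. Over all 10459 genes tested, 6.30% were called higher and 12.9% lower, or 659 and 1350 genes, and rescaling the libraries made this 744 and 771 of 10418. No member was called lower with limma, and 1 (Fn1) was lower at an unadjusted p under 0.05. The median over the tested members was 0.95, and over all genes -0.10. Of the 28, 14 passed the filter through the KO livers alone, 3 of the 8 calls (Fbln5, Des and Lrat) among them, so that these 3 were tested because they were high in KO livers.

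These calls rested on WT saline libraries 2 and 3. With replicates 2 and 3 averaged, limma called 0 of 29 tested members, 11 of which had an unadjusted p under 0.05, and 0.272% of all 10675 genes were called higher. The calls were also 0 without WT saline replicate 2 or without replicate 3, and 22 without replicate 1. Over all genes, 29 of 10686, 28 of 10664 and 843 of 10634 were called higher in these 3 fits. Without KO saline replicate 1 or 2 there were 1 and 4 member calls, all higher, and without replicate 3 there were 4 higher and 1 lower. These fits called 112, 297 and 690 of all genes higher, and the last called 2049 lower. For 12 of the 36 genes every KO saline liver was above every WT saline liver, 10 of them among the 28 tested, where 13.0% of all genes showed this. For 21 further genes the KO livers were above WT replicates 2 and 3 but overlapped replicate 1.

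Bgn, a proteoglycan that binds collagen and TGF-beta, shows the pattern. It had 24.4, 10.1 and 9.98 TPM in WT saline and 51.3, 25.9 and 42.9 in KO saline livers. WT replicate 1 and KO replicate 2 were close together, and the log2 fold change was 1.44 ± 0.37 (adjusted p = 0.0369), or 1.24 (adjusted p = 0.135) with the pair averaged. Vim had 27.9, 13.9 and 19.6 TPM in KO saline livers against 13.2, 3.98 and 4.37 in WT, with 1.52 ± 0.41 (adjusted p = 0.0437), or 1.27 (adjusted p = 0.151). For Des the values were 1.82, 0.42 and 0.56 TPM in WT and 3.72, 3.0 and 2.64 in KO livers, with 1.15 ± 0.26 (adjusted p = 0.0273), or 1.0 (adjusted p = 0.112).

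The 3 members with the smallest p were further from WT replicate 1. Fbln5 had 1.99, 0.97 and 0.56 TPM in WT saline, all below the 3.89 to 5.51 of KO saline, with 1.37 ± 0.24 (adjusted p = 0.0181), or 1.24 (95% interval 0.64 to 1.83, adjusted p = 0.0825) with the pair averaged. Ccn2 was 3.67-fold higher in KO livers by mean TPM, with 1.33 ± 0.26 (adjusted p = 0.0209), or 1.28 (0.55 to 2.0, adjusted p = 0.0942). Spp1 was the case in which WT replicate 1 was the lowest WT liver, so that the difference grew from 0.60 ± 0.12 (adjusted p = 0.0215) to 0.65 (0.32 to 0.99, adjusted p = 0.0851). Each of these 3 intervals excluded 0 with and without the averaging, but the 3 members were picked by their p in this same comparison. The intervals are not adjusted for that choice and add no support to the adjusted p.

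Lrat and Anxa2 were called at 0.89 ± 0.24 (adjusted p = 0.0437) and 1.05 ± 0.24 (adjusted p = 0.029), and with the pair averaged gave 0.76 (adjusted p = 0.153) and 0.92 (adjusted p = 0.118). Lgals1 and Reln, the latter a secreted matrix protein of stellate cells, were higher in every KO than in every WT saline liver without being called, with adjusted p of 0.0586 and 0.0652. The fibrillar collagens Col1a1, Col1a2 and Col3a1 had differences of 0.79, 1.05 and 1.14 with adjusted p of 0.151, 0.0856 and 0.113, and WT replicate 1 overlapped the KO livers in each. Dcn had 52.9, 13.2 and 14.4 TPM in WT and 83.5, 47.9 and 77.2 in KO saline livers, a difference of 1.59 ± 0.49 (adjusted p = 0.0599).

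Fn1 went the other way. Its 3 KO saline livers, at 128 to 180 TPM, were below the 3 WT saline livers, at 184 to 223, with a log2 difference of -0.43 ± 0.14 (adjusted p = 0.0729), or -0.38 (adjusted p = 0.22) with the pair averaged.

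Markers outside the 36 genes moved with genotype under saline as well. In the further stellate cell list 5 of 10 tested markers, in the myofibroblast list 3 of 5 and among sinusoidal endothelial markers 5 of 7 were called higher in KO livers, and none of these lists had a marker called lower. Over all genes tested 6.30% were called higher and 12.9% lower. No tested myofibroblast marker reached 1 TPM in every WT saline liver, nor did Colec10, Lhx2, Hand2 and Ptprb of the other lists. These were tested because they were high in KO livers. With the pair averaged limma called none of the markers in these lists, and 6 of 10, 3 of 5 and 5 of 8 had an unadjusted p under 0.05. The sinusoidal endothelial sums were 16.4 to 26.4 TPM in WT and 29.1 to 49.5 in KO livers, and the 8 portal fibroblast markers summed to 2.96 to 7.15 and 8.62 to 21.7. The 5 cholangiocyte markers summed to 4.91 to 6.09 TPM in WT and 8.01 to 16.5 in KO livers. Of 4 tested by limma, 1 was called higher and 3 had an unadjusted p under 0.05. With the pair averaged these were 0 and 2 of 4. The 4 were Krt7, Krt19, Epcam and Cldn7, each at 1 TPM or more in every KO but not in every WT saline liver. They too were tested because they were high in KO livers. The 5 mesothelial markers, which mark the liver capsule, summed to 12.8, 1.06 and 1.09 TPM in WT saline and to 25.5, 1.91 and 19.2 in KO saline livers, so WT replicates 2 and 3 and KO replicate 2 held little of them. None of 9 Kupffer cell and none of 5 hepatocyte markers was called by limma, with 3 and 1 at an unadjusted p under 0.05. The Kupffer cell sums went the other way, with 131 to 221 TPM in WT and 62.1 to 141 in KO livers, ranges that overlapped. The part of cell composition or of the piece of liver sampled in the saline differences was not tested.

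**Figure D3:**
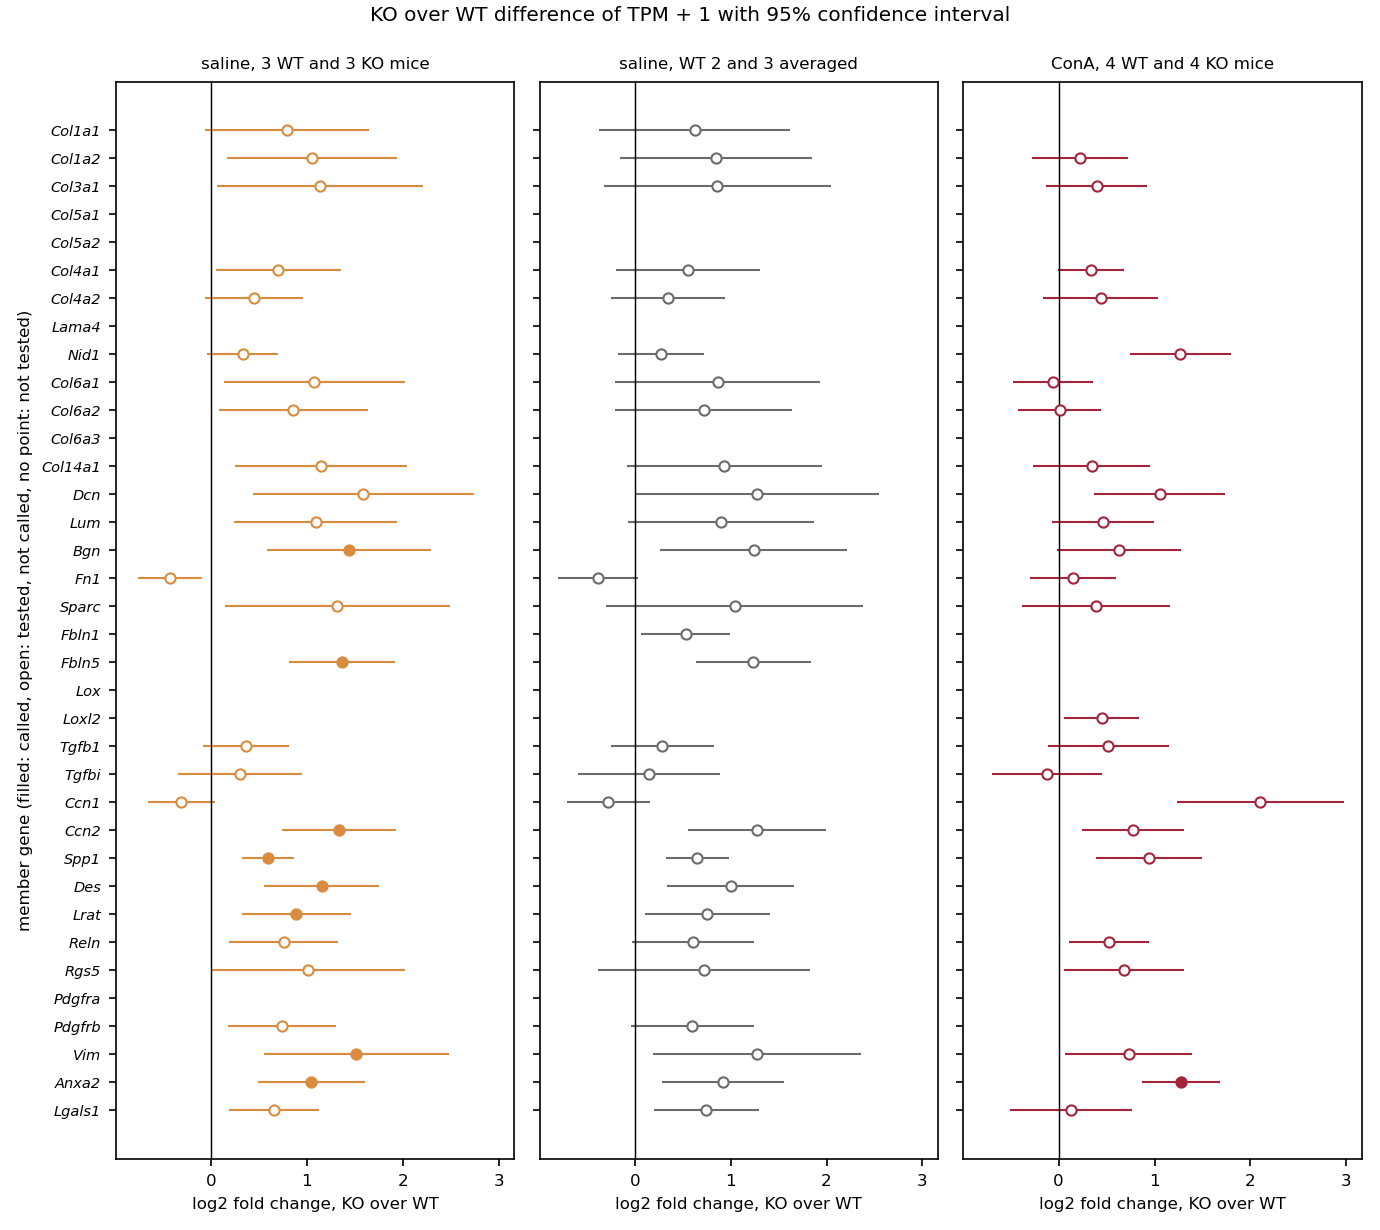
Log2 fold change of TPM + 1 between KO and WT livers (horizontal axes, with 95% confidence intervals) for the 36 genes (vertical axis) under saline, under saline with WT replicates 2 and 3 averaged, and after ConA; filled points were called and genes without a point were not tested. In the left panel 8 members are filled, none in the middle one, and Anxa2 in the right one.

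After ConA, few of these genes were called between KO and WT livers. Of 24 tested members, 1 (Anxa2) was called higher in KO livers, against 0.342% of all 10519 genes tested, and none was called lower, against 0.0856%. Over all genes 36 were called higher and 9 lower, and after rescaling 12 and 13 of 10452, when no member was called. At an unadjusted p under 0.05 there were 10 higher and 0 lower members, and 1753 of all 10519 genes in either direction. For 7 of the 24 the group with the lower values did not meet the filter by itself, and 0 of these were called. They were Col1a2, Col3a1, Col6a1, Col14a1, Lum, Loxl2 and Reln, of which Loxl2 and Reln were among the 10. The median was 0.46 over the tested members and 0.05 over all genes. In 4 of the 24 (Anxa2, Nid1, Ccn1, Spp1) each KO ConA liver was above each WT ConA liver, which was the case for 6.37% of all genes tested.

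Anxa2 differed by 1.28 ± 0.19 in log2 (95% interval 0.87 to 1.69, adjusted p = 0.035), with 64.0 to 97.3 TPM in the KO and 24.6 to 40.3 in the WT ConA livers. Its call was lost without WT ConA replicate 2 or any 1 of the KO ConA libraries, with adjusted p from 0.0539 to 0.0764, while the difference stayed between 1.16 and 1.40. Nid1 differed by 1.27 ± 0.24 (95% interval 0.75 to 1.79, adjusted p = 0.0534). The 4 KO ConA livers lay close together at 7.98 to 8.76 TPM, and the WT ConA livers reached from 1.36 to 4.13. Ccn1 differed by 2.10 ± 0.40 (95% interval 1.23 to 2.98, adjusted p = 0.0534), the largest difference, with a spread from 9.89 to 47.7 TPM among the KO livers. Spp1 followed with 0.94 ± 0.25 (adjusted p = 0.102).

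The promoters of Anxa2, Nid1 and Ccn1 are shown because their values set KO apart from WT livers after ConA. Each is the 250 bases before the gene start in RefSeq for GRCm38.p6, written 5′ to 3′ on the strand of the gene, with 1 match in capitals: TGAGTCA, a form of the AP-1 motif TGANTCA, for Anxa2 (chr9:69453433-69453682, plus strand), the TEAD motif GGAATG for Nid1 (chr13:13437352-13437601, plus strand), and its reverse complement CATTCC for Ccn1 (chr3:145649986-145650235, minus strand):
Anxa2: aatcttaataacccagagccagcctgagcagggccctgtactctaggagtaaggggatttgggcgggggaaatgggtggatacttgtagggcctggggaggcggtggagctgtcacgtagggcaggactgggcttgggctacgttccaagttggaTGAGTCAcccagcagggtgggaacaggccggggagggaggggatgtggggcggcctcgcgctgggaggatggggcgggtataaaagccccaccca
Nid1: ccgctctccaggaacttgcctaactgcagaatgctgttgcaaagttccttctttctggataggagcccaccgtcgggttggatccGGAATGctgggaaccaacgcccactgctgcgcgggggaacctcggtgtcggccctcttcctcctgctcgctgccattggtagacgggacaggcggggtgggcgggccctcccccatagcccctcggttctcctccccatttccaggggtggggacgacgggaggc
Ccn1: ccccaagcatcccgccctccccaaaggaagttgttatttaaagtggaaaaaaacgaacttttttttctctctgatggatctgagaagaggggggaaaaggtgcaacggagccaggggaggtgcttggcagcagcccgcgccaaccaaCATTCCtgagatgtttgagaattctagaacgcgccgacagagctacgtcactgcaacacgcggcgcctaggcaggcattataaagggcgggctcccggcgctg

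The matches began 95 bases (Anxa2), 165 bases (Nid1) and 103 bases (Ccn1) before the gene start. Of the 36 genes, 24 had a window in the RefSeq promoter table, 28 windows in all. GGAATG on either strand was found for 5 of the 24 (Ccn1, Col3a1, Col6a2, Lrat and Nid1) and in 14.7% of all 32851 windows. TGANTCA was found for Anxa2 and Col6a1 and in 7.81% of all windows. The CArG box, the motif of serum response factor, was found for no member and in 1.63% of all windows. These letters are a description of the windows, and no binding was measured.

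To tell genotype differences that were present under saline from those that came with ConA, the change with ConA was compared between the genotypes. This interaction was called for 2 of 30 tested members: Ccn1 higher, against 2.64% of all 11327 genes tested, and Fbln5 lower, against 2.14%. Among the members 7 had a positive and 23 a negative interaction, with a median of -0.50, while over all genes 62.2% were positive and the median was 0.14, or 0.03 after rescaling. The median of the members was -0.30 with the pair averaged, -0.72 without WT saline replicate 1, -0.31 without replicate 2, -0.26 without replicate 3, and -0.31 without KO saline replicate 1 or without KO ConA replicate 4. In the 23 members tested in both genotype comparisons, the median KO over WT difference was 1.01 under saline and 0.46 after ConA, and it was smaller after ConA in 17.

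Ccn1 was the member whose genotype difference appeared with ConA. It was -0.31 ± 0.15 under saline (adjusted p = 0.173) and 2.10 after ConA, and the interaction was 2.41 ± 0.53 (95% interval 1.29 to 3.53, adjusted p = 0.028). With WT saline replicates 2 and 3 averaged it was 2.38 (1.13 to 3.63, adjusted p = 0.0963), and the call was also lost without either of these, without KO saline replicate 1 or 2, or without KO ConA replicate 4, with adjusted p from 0.0536 to 0.0995. Nid1 had the same direction, from 0.33 ± 0.16 under saline to 1.27 after ConA, with an interaction of 0.94 ± 0.32 (adjusted p = 0.0916).

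Fbln5 had a negative interaction. Its KO over WT difference was 1.37 under saline, and after ConA it had 0.34, 0.5, 0.27 and 0.24 TPM in WT and 0.29 to 0.99 in KO livers and did not pass the filter of that comparison. The interaction was -1.06 ± 0.29 (95% interval -1.68 to -0.45, adjusted p = 0.0483), or -0.93 (-1.57 to -0.30, adjusted p = 0.135) with the pair averaged, and it was called in 3 of the 14 fits that left out 1 library, those without WT saline replicate 1, WT ConA replicate 4 or KO ConA replicate 3. Over these 14 fits its adjusted p ranged from 0.0201 to 0.145. It was not called with a pseudocount of 0.1 or without a filter and was not tested at 5 TPM. Fbln5 reached 1 TPM in no ConA liver, where log2(TPM + 1) narrows differences, and it passed the filter through the KO saline livers. Lrat and Col6a1 had interactions of -0.78 ± 0.26 (adjusted p = 0.091) and -1.14 ± 0.44 (adjusted p = 0.129).

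For Anxa2 and Spp1 all KO livers were above all WT livers under saline and again after ConA. Both were called under saline, but not with the pair averaged (adjusted p = 0.118 and 0.0851), and after ConA Anxa2 was called and Spp1 was not (adjusted p = 0.102). Anxa2 differed by 1.05 under saline and 1.28 after ConA, with an interaction of 0.23 (95% interval -0.45 to 0.91, adjusted p = 0.671). Spp1 differed by 0.60 and 0.94, with an interaction of 0.35 (-0.35 to 1.05, adjusted p = 0.52). These intervals are wide, and a p that misses the threshold does not show that the differences were alike. The values of 12 genes by mouse show the 3 patterns side by side.

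**Figure D4:**
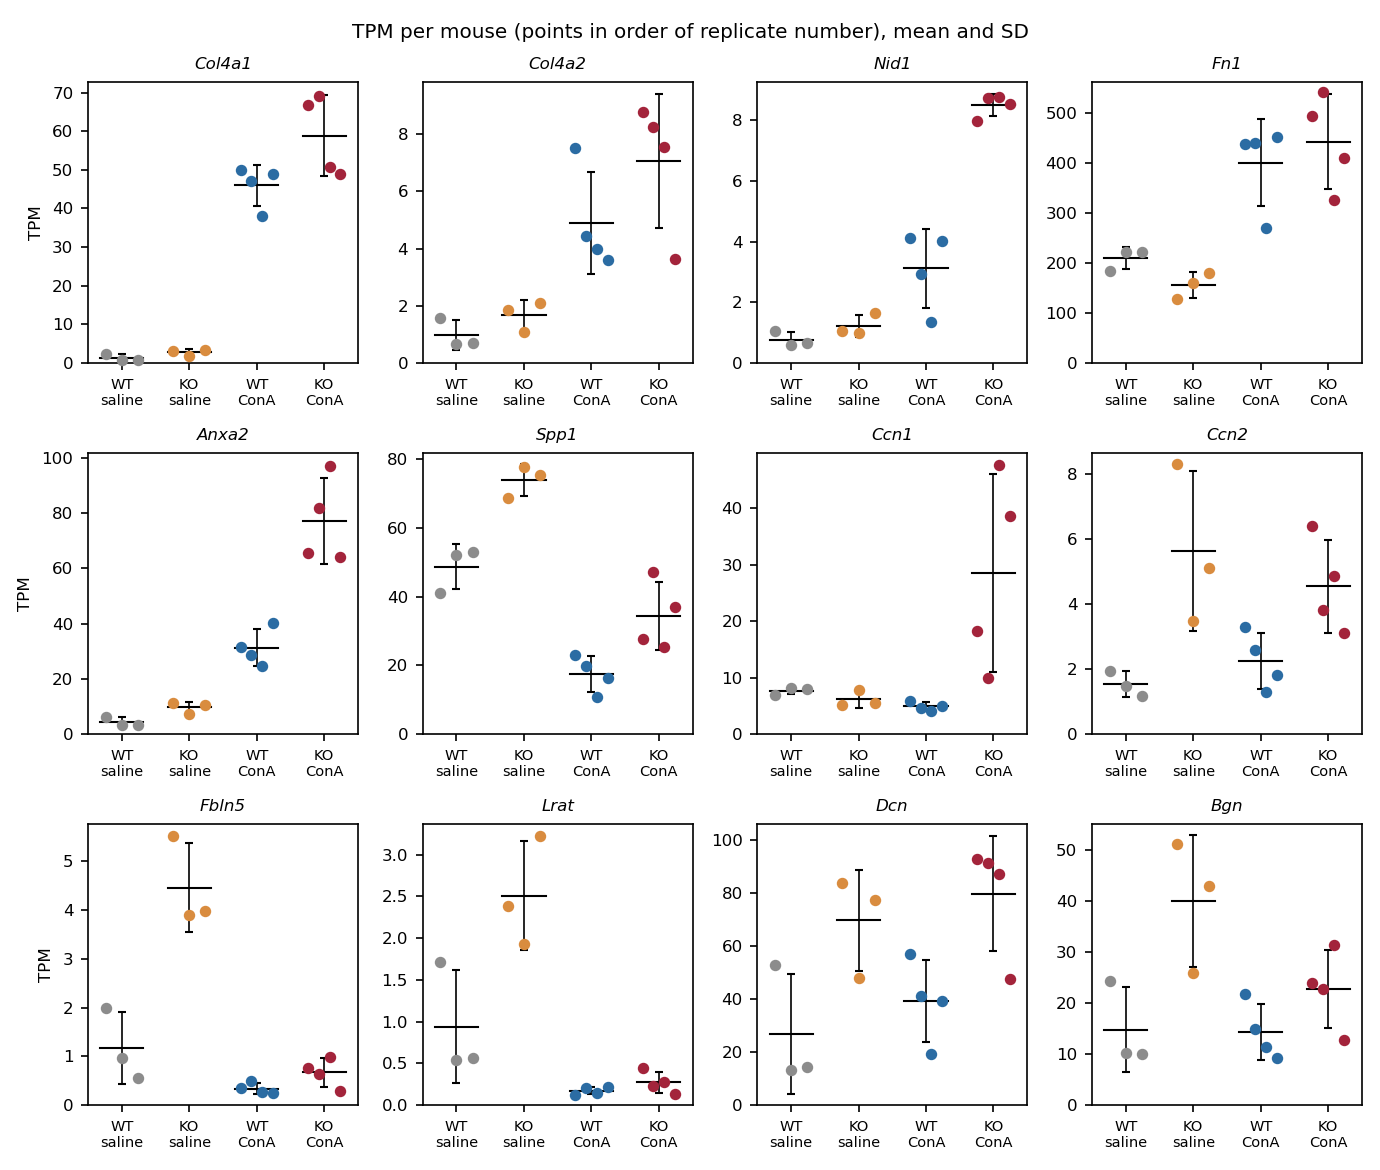
TPM (vertical axes) of 12 of the genes in each mouse of the 4 groups (horizontal axes); points are mice in order of replicate number, lines the group mean and bars the SD. Ccn1 is at most 8.24 in every group but KO ConA, where it reaches 47.7, and Fbln5 is at least 3.89 in KO saline and at most 1.99 elsewhere.

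After ConA the marker lists differed between genotypes in the following way. The neutrophil sums were 318 to 560 TPM in WT and 413 to 953 in KO livers, the further stellate cell sums 28.0 to 83.3 and 49.4 to 103, and the myofibroblast sums 6.95 to 14.04 and 12.0 to 37.0. Ecm1 alone made 18.65 to 63.35 and 40.7 to 80.26 TPM of the stellate cell sums. No marker of any list was called between the genotypes after ConA by limma, with 4 of 7, 5 of 8 and 2 of 3 tested markers of these lists at an unadjusted p under 0.05. Their part in the higher Anxa2, Nid1 and Ccn1 values was not tested. KO ConA replicate 3, with the highest Ccn1 and Anxa2 values, also had the highest sums after ConA of several lists. These were the mesothelial (20.7 TPM), myofibroblast (37.0), portal fibroblast (14.9) and cholangiocyte (22.1) lists. KO ConA replicate 4, with 38.6 TPM of Ccn1, had 9.42, 12.0, 6.58 and 15.2 TPM in the same lists. A link between these sums and the members was not tested.

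Other genes of matrix assembly were read from 4 lists written for their role. Beside their counts stand the shares over all genes, 22.0% higher and 31.0% lower with ConA in WT livers and 33.9% and 30.7% in KO livers. Between KO and WT livers under saline the shares were 6.30% higher and 12.9% lower. Of 16 enzymes of collagen processing and cross-linking, 12 were tested in WT livers, where 7 rose and 2 fell, or 7 and 1 with the pair averaged. In KO livers 14 were tested, 9 rose and 2 fell. Tgm2, the tissue transglutaminase that cross-links matrix proteins, went from 28.5 to 29.8 TPM in WT saline to 866 to 1264 in WT ConA livers, and from 24.8 to 42.1 to 1214 to 1824 in KO livers, with log2 fold changes of 5.06 and 5.55. P3h1, a prolyl hydroxylase of collagen, rose by 2.15 in WT and 1.60 in KO livers. Between KO and WT livers 2 of the 11 tested enzymes were called higher under saline, and none of 13 was called after ConA by limma, with 6 at an unadjusted p under 0.05. The 2 calls were lost with the pair averaged.

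Of 23 genes of TGF-beta and PDGF signalling, 14 were tested in WT livers, where 4 rose, a share near that of all genes, and 1 fell. With the pair averaged it was 4 and 1 of 15. In KO livers 9 of 16 rose and 2 fell. Skil, a feedback inhibitor of SMAD proteins, had 0.85 to 1.38 TPM under saline, and after ConA 3.21 to 10.2 TPM in WT livers and 7.96 to 13.7 in KO livers, with log2 fold changes of 1.89 and 2.54. Under saline 3 genes of this list were called higher and 1 lower in KO than in WT livers, 0 with the pair averaged, and none of 15 tested was called by limma after ConA, with 6 at an unadjusted p under 0.05.

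Of 15 matrix receptors, 10 were tested in WT livers, where 4 rose and 1 fell, or 3 and 1 with the pair averaged, and 11 in KO livers, where 7 rose and 1 fell. Cd44, the hyaluronan and osteopontin receptor that leukocytes also carry, rose by 0.71 and 1.62, and the integrin subunit Itgb5 fell by 1.70 and 1.78 on the log2 scale. Sdc1, a syndecan of hepatocytes, was the 1 gene of the 4 lists with a called interaction, 1.17 ± 0.31 (adjusted p = 0.0462), or 1.07 (adjusted p = 0.132) with the pair averaged. After ConA it had 59.8 to 125.5 TPM in WT livers and 146 to 194 in KO livers. Among 15 other collagens and basement membrane genes, 4 were tested in WT and 5 in KO livers after ConA. Col12a1 rose by 1.18 in KO livers from at most 0.19 TPM under saline, and Col27a1 fell by 0.69 there.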

How the data were processed

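Liver RNA of 14 mice was sequenced by the authors on a BGISEQ-500, in single-end mode with 50 bases per read. The deposited values are TPM per gene, made by the authors before deposit and used here as deposited. The submitters' processing notes name Bowtie2, RSEM 1.3.1 and GRCm38.p6, while the methods of the study name STAR, HTSeq and edgeR, so which tools made the TPM remained unclear. Each library sums to 1000000, and the number of reads is not part of the values.

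Groups and replicate numbers came from the sample labels. The moderated linear model of limma 3.58.1, with a mean-variance trend, was fitted in R 4.3.3 on log2(TPM + 1) of all genes that reached 1 TPM in a number of libraries no lower than the size of the smallest group, with a Benjamini-Hochberg adjusted p under 0.05 over all genes tested. A comparison of 2 groups used only their libraries, and all 14 entered the interaction. The replicates are separate mice per the labels. The members and lists were chosen with earlier results of these data known. Named are members called between genotypes or by the interaction, the 4 largest called rises and falls with ConA, the 3 smallest p of each genotype comparison and 2 genes of each pathway list, 1 of which is not reported here. Col1a1, Reln, Rgs5, Dcn, Sdc1 and other members named outside this rule were chosen after their values were seen. Marker lists lacked 1 T cell and 1 hepatocyte symbol. The procedure was tested on simulated data with 200 changed genes. Results were recomputed with 0.1 as pseudocount, with 5 TPM or no minimum as filter, with libraries rescaled by their median ratio to the mean of the genes, with all 14 libraries in each fit, with a replicate block, with WT saline replicates 2 and 3 averaged and with libraries left out. Promoter sequences came from RefSeq, and the share of unique 50-base stretches from GENCODE transcripts. Python 3.11.15 with pandas 2.3.3 and matplotlib 3.10.9 was used for counts and figures.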

Additional observations from a re-analysis of the deposited data

Results flagged for a closer look

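Among the 72 sets of 4 ConA livers (36 genes in 2 groups) 5 held a value far from the other 3 livers by Dixon's test, for which chance gives about 1 in 20 sets. In KO ConA replicate 4, Dcn was 47.36 TPM, with 86.95 to 92.71 in the other livers, Lum was 0.92 TPM, with 2.14 to 2.32, and Pdgfrb was 0.61 TPM, with 1.24 to 1.32. The Fn1 value of WT ConA replicate 3 was 271.04 TPM, with 438.63 to 453.22 in the others. Lgals1 was 26.97 TPM in KO ConA replicate 3 and 14.81 to 15.05 in the others.

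The change with ConA differed between genotypes for 2 members by the interaction of the limma fit, with 2.41 for Ccn1 (adjusted p = 0.028) and -1.06 for Fbln5 (adjusted p = 0.0483). Both lost the call with WT saline replicates 2 and 3 averaged.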

How the results depend on the processing

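No direction turned in any of the 633 values of the 45 single-gene results under 22 alternative settings, in 127 of which a call was lost and in 9 gained. Members called higher and lower in WT ConA against WT saline (main 7 and 3) were 4 higher with a filter at 5 TPM, 5 lower without a filter and 1 lower with the pair averaged. Of all genes, 1725 of 7567 were higher, and 3723 of 17065 and 2739 of 10985 lower, in these settings. In KO ConA against KO saline (8 and 13), 4 were lower with the filter at 5 TPM, as were 2576 of all 7728 genes. In KO saline against WT saline (8 and 0), higher calls were 5 with the filter at 5 TPM, 3 without a filter, 5 with all 14 libraries, 0 with the pair averaged and 22 with the replicate block, which also gave 1 lower. The higher calls over all genes moved as well, from 659 in the main fit. In the order given they were 508, 387, 200, 29 and 831, and the replicate block called 1592 lower. In KO ConA against WT ConA (1 and 0), higher calls were 0 without a filter, 0 with rescaled libraries, 4 with all 14 libraries and 3 with the replicate block. For all genes they were 36 in the main fit and 1, 12, 416 and 116 in these settings. For the interaction (1 and 1), higher calls were 0 with the pair averaged, and lower calls were 0 with a pseudocount of 0.1, with the filter at 5 TPM, without a filter and with the pair averaged. Among all genes, higher calls went from 299 to 19 with the pair averaged. Lower calls went from 242 to 189, 238, 179 and 9 in the 4 settings. The cause of these changes was not tested, except that the filters change which members are tested.

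With 1 library left out, calls higher and lower ranged from 5 to 11 and 1 to 3 in WT ConA against WT saline, 7 to 10 and 5 to 16 in KO ConA against KO saline, 0 to 22 and 0 to 1 in KO saline against WT saline, 0 to 2 and 0 to 0 in KO ConA against WT ConA, and 0 to 1 and 0 to 3 for the interaction. In these fits the higher calls over all genes ranged from 28 to 843 in KO saline against WT saline. They ranged from 4 to 44 in KO ConA against WT ConA. Without replicate 3 of both ConA groups, Anxa2 was not called in KO ConA against WT ConA (1.06, adjusted p = 0.0542) and Nid1 was (1.01, adjusted p = 0.0415). Deviations of same-numbered mice correlated between -0.189 and 0.405, with the highest value for replicate 3 of WT and KO ConA. Mice with different numbers were not compared, so this cannot decide whether replicate numbers pair the mice. The sample labels state no pairing, and the replicate block is given here only. TPM carry no depth, so values near 0 could not be judged.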
